A study of Homo sapiens with 6 samples.

Results

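The genes described here are 32 regulators of apoptosis: members of the BCL2 family, caspases, death receptors with one ligand, and the adaptors and mitochondrial factors that act with them. They were chosen by name, as the genes of the deposited table whose Ensembl ID maps to a fixed list of symbols, and all 32 were found among 60664 genes. Messenger RNA was sequenced from the human ovarian carcinoma line SKOV3, which is long established, as 6 libraries from independent biological replicates. In 3 libraries the cells carried a short hairpin RNA against JUP (shJUP 1 to 3), the gene of plakoglobin, a protein of desmosomes and adherens junctions. In the other 3 they carried a control hairpin (shNC 1 to 3), so both groups express a hairpin and differ in its target. No drug, time course or dose is named in the labels, and the labels name 1 cell line for every library. The series title places JUP upstream of PDGFB and JAK-STAT signalling. The comparison made here asks which death and survival genes differ between cells with each hairpin. Effects of the hairpin other than a lower level of JUP cannot be told apart from it.

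Apoptosis runs through 2 connected routes. In the mitochondrial route, BH3-only proteins such as BIM, PUMA, NOXA and BMF bind anti-apoptotic BCL2 family proteins such as MCL1 and BCL-XL, which frees BAX and BAK to open the outer membrane of the mitochondrion. Cytochrome c then leaves and assembles with APAF1 and caspase-9 into the apoptosome, while XIAP blocks caspases and DIABLO relieves that block. In the receptor route, ligands such as TRAIL bind death receptors, which recruit FADD and caspase-8, and CFLAR (cFLIP) competes with caspase-8 for that complex. Ovarian carcinoma cells often depend on MCL1 or BCL-XL for survival. Much of this control acts on proteins, by binding, cleavage and release, which RNA levels do not show.

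Levels are counts scaled to library size (CPM, with TMM factors), and differences are log2 fold changes of shJUP over shNC with their standard error (SE). The hairpin's target JUP (ENSG00000173801) had 39.9, 93.6 and 24.6 CPM in shJUP 1, 2 and 3, against 104, 133 and 101 CPM in shNC 1, 2 and 3. Every shJUP library lay below every control, but shJUP 2 lay close to the controls. Its log2 fold change was -1.10 (SE 0.44, edgeR adjusted p = 0.47). Libraries of number 2 also stood apart in many other genes: both lay above or both below the other 4 libraries in 36.4% of the 15867 genes tested and in 14 of the 32 apoptosis genes (43.8%). Many results that rest on these libraries are therefore also given without them. Library totals ran from 17456121 to 19279514 estimated counts. Of 10 markers of ovarian carcinoma epithelium 7 reached 1 CPM in some library, while MUC16, WFDC2 and MSLN stayed under 1 CPM. Their summed level was 3620 to 5930 CPM in shJUP and 5600 to 8230 CPM in shNC, mainly through ERBB2 (2320 to 4420 against 4220 to 6910 CPM). Log2 fold changes were above 0 for PAX8, KRT8 and KRT18 (0.12, 0.37 and 0.16). They were below 0 for KRT19, KRT7, EPCAM and ERBB2 (-0.50, -0.54, -0.06 and -0.63). Leukocyte markers summed to 21.7 to 36.3 against 19.8 to 31.9 CPM, with CD3E and HBB at 0 in all libraries. Only CD68 of those 7 markers reached 1 CPM. Fibroblast markers summed to 11.0 to 263 against 43.4 to 451 CPM, with 4 of 6 reaching 1 CPM, mainly through COL1A1. Endothelial markers summed to 8.93 to 11.8 against 6.69 to 11.6 CPM, with 4 of 5 reaching 1 CPM. The part of any of these in the results was not tested.

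The promoters of 3 genes are shown because 2 of them, TNFSF10 and BMF, had the lowest ratios to control in libraries 1 and 3 and the third, BAK1, was the pro-apoptotic effector that was higher in every shJUP library. Each line gives the 250 bases before the annotated start on the gene's own strand, from RefSeq (GRCh38.p14). Capitals mark matches to the motifs searched.

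TNFSF10, chr3:172523431-172523680, minus strand: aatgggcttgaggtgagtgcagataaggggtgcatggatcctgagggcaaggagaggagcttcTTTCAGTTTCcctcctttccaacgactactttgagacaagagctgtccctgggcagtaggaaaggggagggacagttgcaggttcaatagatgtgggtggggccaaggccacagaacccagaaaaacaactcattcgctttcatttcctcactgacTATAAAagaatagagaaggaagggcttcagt

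BMF, chr15:40108880-40109129, minus strand: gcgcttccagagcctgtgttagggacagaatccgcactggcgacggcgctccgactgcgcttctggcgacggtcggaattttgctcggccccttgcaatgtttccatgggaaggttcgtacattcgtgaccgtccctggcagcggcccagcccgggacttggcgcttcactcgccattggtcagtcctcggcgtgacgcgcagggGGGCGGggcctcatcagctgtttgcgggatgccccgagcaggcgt

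BAK1, chr6:33580277-33580526, minus strand: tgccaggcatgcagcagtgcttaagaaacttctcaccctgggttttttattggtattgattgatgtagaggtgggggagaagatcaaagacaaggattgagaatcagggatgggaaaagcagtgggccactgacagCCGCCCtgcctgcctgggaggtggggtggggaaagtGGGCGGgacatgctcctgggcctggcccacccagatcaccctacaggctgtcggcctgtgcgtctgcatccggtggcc

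In the TNFSF10 window the interferon-type motif (GAAA, any 2 bases, GAAA) lies on the opposite strand, with its first base 187 bases before the start, and TATAAA lies 31 bases before it. BMF holds the GC box GGGCGG 45 bases before this start and again 40 bases after it, outside the stretch shown. BAK1 holds it 114 and 78 bases before, the first on the opposite strand. A second annotated BMF start lies nearby and its window held none of the motifs searched. Of the 32 genes 25 had a window in the table, and MCL1 was not among them. All motifs were searched on both strands in windows of 300 bases, from 250 before to 50 after each start. GGGCGG was in windows of 20 of the 25 genes, against 45.0% of 35116 windows of all genes. The interferon-type motif was in windows of 3 genes (BBC3, CASP8 and TNFSF10), against 3.57% of all windows. The AP-1 motif TGANTCA was in those of 5 genes (BBC3, CASP8, CFLAR, FADD and FAS), against 7.71%. The STAT-type motif TTCNNNGAA was found for CASP8 alone, against 7.66%, and the FOXO-type motif GTAAACA for BCL2L11 alone, against 3.42%. TATAAA was found for BCL2L1, CASP8 and TNFSF10, against 11.5%. Several genes have more than one window, so shares of genes and shares of windows are on different bases. Of the 46 windows of these 25 genes, GGGCGG was in 32, TGANTCA in 6, and the interferon-type motif and TATAAA in 3 each. The STAT-type and FOXO-type motifs were in 1 each. A match is a description of letters, not of a bound site.

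In control cells the 32 genes spanned a wide range of levels. Divided by exon length, MCL1 had the highest level at 154 CPM per kilobase (range 145 to 165 over the 3 control libraries), and its range did not overlap that of the next gene. BCL2L1, which encodes BCL-XL, followed at 63.7, the BH3-only gene PMAIP1 (NOXA) at 54.8 and the TRAIL receptor gene TNFRSF10B (DR5) at 49.2 CPM per kilobase. The range of PMAIP1 (42.7 to 67.7) overlapped both others, whereas those of BCL2L1 (60.3 to 69.9) and TNFRSF10B (46.1 to 51.4) did not overlap each other. After a gap came CYCS (cytochrome c) at 26.8, the adaptor FADD at 19.3, the TNF receptor gene TNFRSF1A at 19.1 and the decoy receptor gene TNFRSF10D at 17.1 CPM per kilobase, each overlapping the next of these 4. At the low end, BCL2 had 1.09 and the BH3-only genes BBC3 (PUMA) and HRK had 0.882 and 0.0766 CPM per kilobase. BCL2 RNA was therefore far below MCL1 and BCL2L1 RNA on this scale. HRK rested on 6 to 27 counts per library. With the median length of the coding transcripts in place of all exons, the same 5 genes led, with CYCS second, and BMF moved from 8.72 to 64.6, CFLAR from 3.51 to 48.0 and BAX from 10.8 to 45.6 CPM per kilobase.

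**Figure D1:**
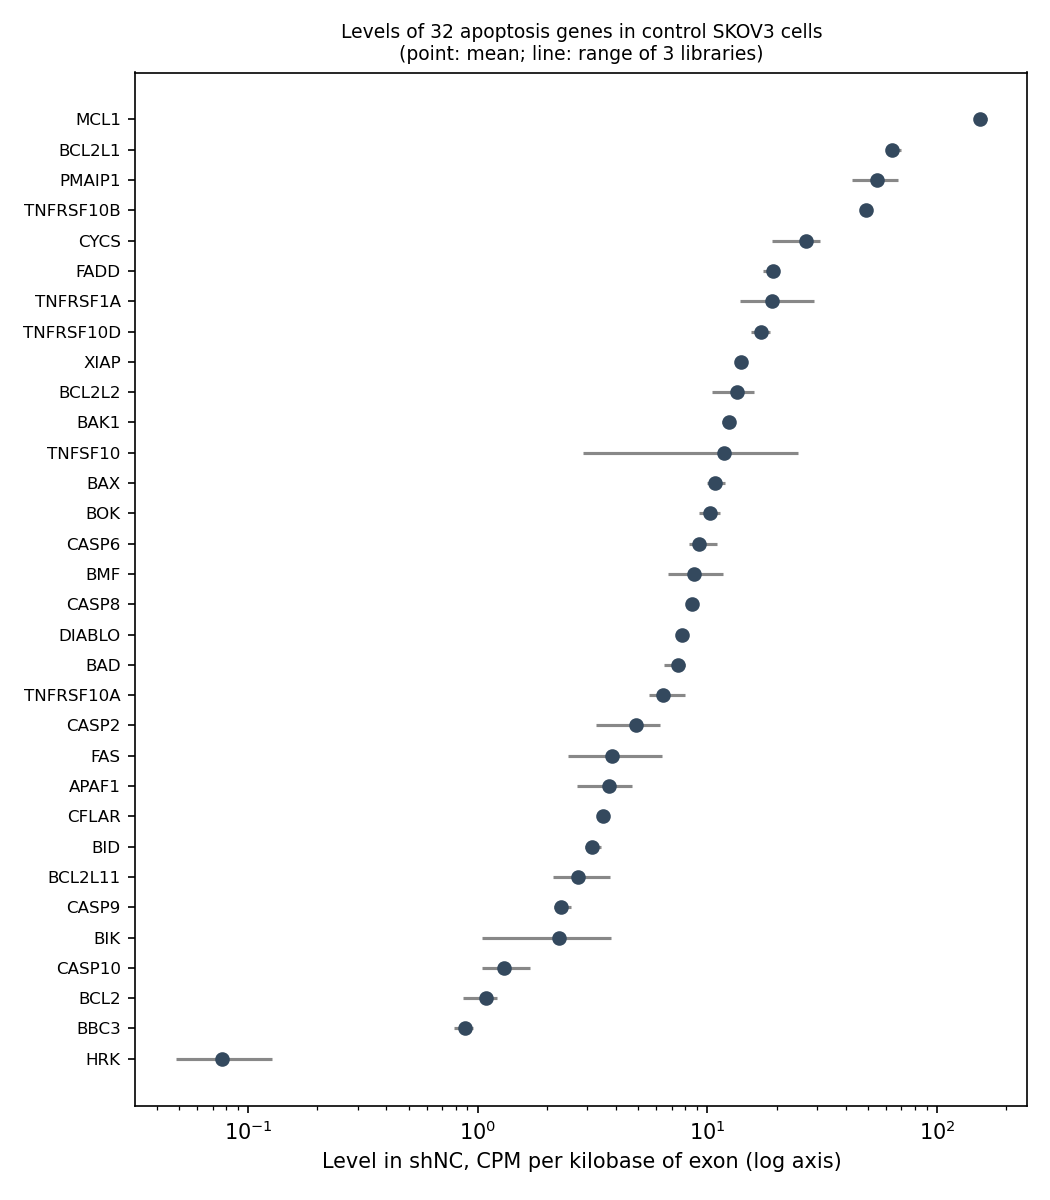
Levels of the 32 genes in control SKOV3 cells, as CPM per kilobase of exon on a log axis (point: mean of 3 shNC libraries, line: their range). MCL1 stands apart at the top at 154 and HRK at the bottom at 0.0766 CPM per kilobase.

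The fold changes of the 32 genes went in both directions. All 32 passed the filter on low counts, 13 had a log2 fold change above 0 and 19 below, and the median was -0.05 against -0.01 over all 15867 genes tested. Without regard to direction, the median size of the log2 fold change was 0.27, against 0.19 over all genes. It was smaller than 0.3 in 20 of the 32 (62.5%, against 67.4% of all genes), and 3 differed at least 2-fold (BMF, TNFSF10 and HRK, 9.38%, against 3.16% of all genes). The edgeR quasi-likelihood test with Benjamini-Hochberg adjustment called 0 of the 32, beside a background of 0.0% of all genes. Before adjustment, 5 of the 32 had an edgeR p under 0.05 (15.6%, against 10.0% of all genes). They were MCL1, which was lower (4.87% of all genes), and BAK1, BAD, HRK and TNFRSF10D, which were higher (5.17% of all genes). DESeq2 called 1 gene, MCL1, which was lower, beside 1.19% of the genes it tested (0.664% higher and 0.524% lower), and limma-voom called 0 of 32 (0.0% of all genes). The 2 groups did not overlap in 5 of the 32 (15.6%, against 17.0% of all genes). MCL1 and BBC3 lay below the controls (8.65% of all genes), and BAK1, BAD and HRK above them (8.39%). These shares lie near the background or rest on 1 to 5 genes, and the results that follow concern single genes.

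The library number was also fitted as a block, since the libraries of number 2 deviated together (correlation of deviations from group means 0.51). For numbers 1 and 3 the correlation was low (0.14 and 0.20). With shJUP 3 correlating more with shNC 1 (0.39), the pairing of numbers 1 and 3 is uncertain. With the block edgeR called 0 of the 32 (background 0.0063%), while DESeq2 called 5 of the 31 to which it gave an adjusted p (16.1%, background 5.25%). These were MCL1, BMF and TNFSF10, which were lower (background 2.91%), and BAK1 and CYCS, which were higher (background 2.35%). Leaving out both number-2 libraries left 2 libraries in each group. There edgeR called 1 of the 32, BMF (background 0.308%), and DESeq2 called 4 of 31 (background 4.97%). MCL1, BMF and TNFSF10 were lower there (background 2.66%) and CYCS was higher (background 2.31%). Within the 3 numbered pairs, 16 of the 32 genes (50.0%) lay on the same side of the control in every pair, against 43.8% of all genes. Of these, 8 were higher in shJUP (background 21.3%) and 8 lower (background 22.5%). Which genes passed depended on the tool and the block, and both are named beside the values.

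**Figure D2:**
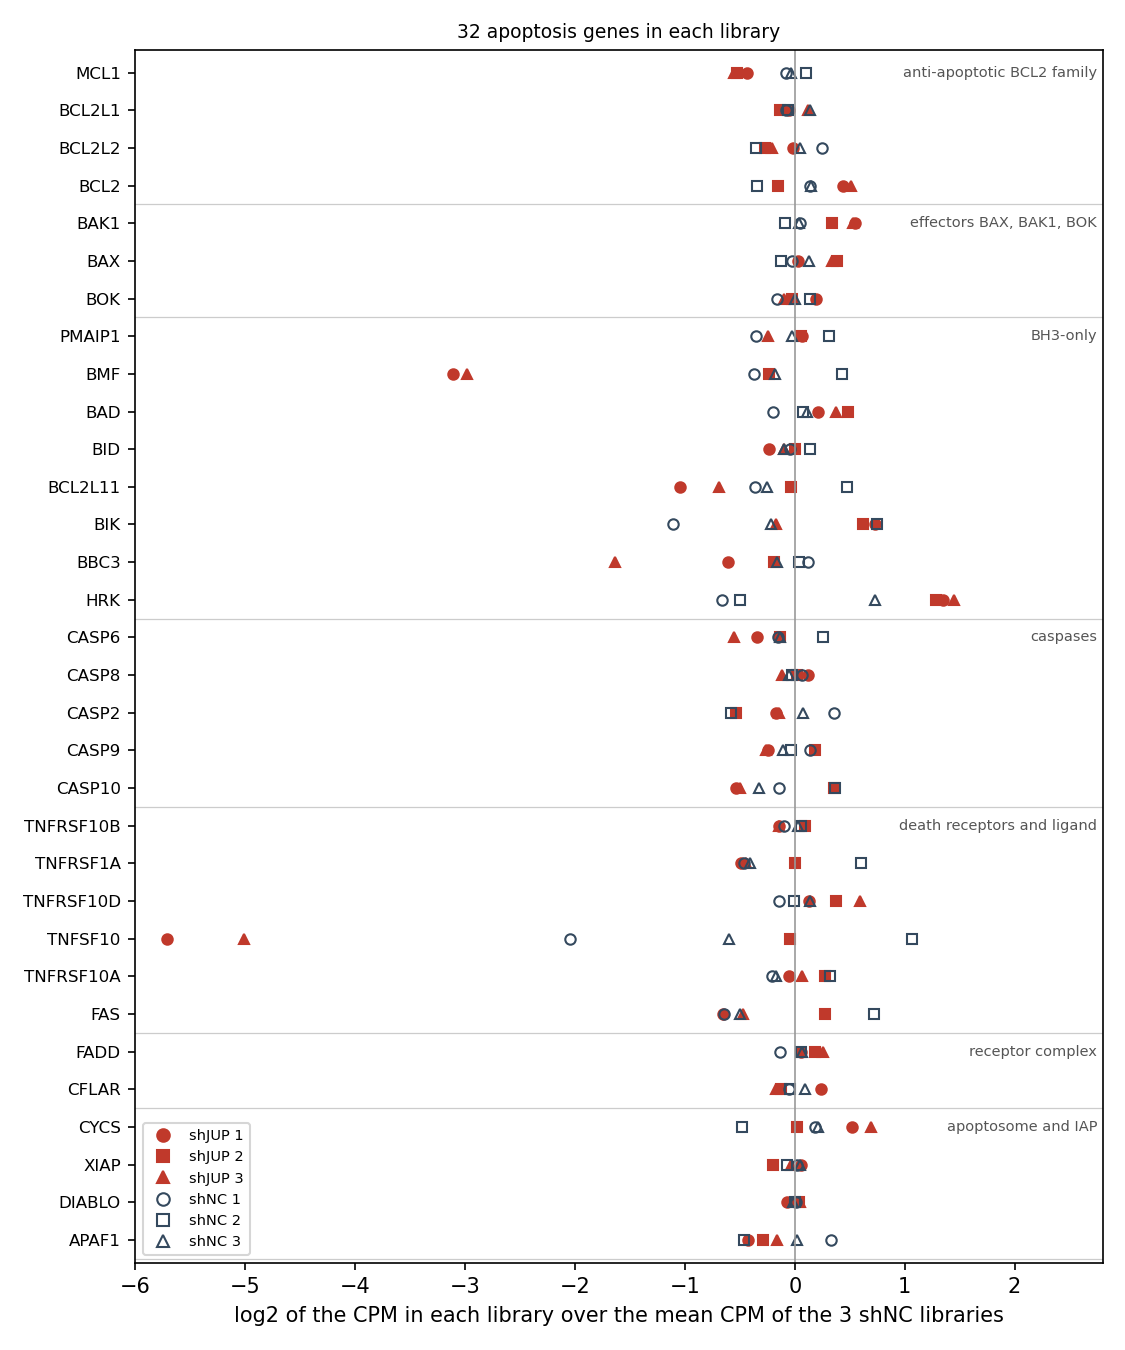
Each library's level of the 32 genes as log2 of its CPM over the mean CPM of the 3 shNC libraries, ordered by role (filled red: shJUP, open: shNC, shape: library number). Most genes lie close to 0, while BMF and TNFSF10 in shJUP 1 and 3 lie far to the left and MCL1 lies to the left in all 3 shJUP libraries.

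Among the anti-apoptotic genes, MCL1 was lower in shJUP and the other 3 were not called. MCL1 (ENSG00000143384), a short-lived protein that holds BAK and BIM in check, had 496, 468 and 459 CPM in shJUP 1, 2 and 3, against 636, 722 and 657 CPM in shNC 1, 2 and 3. All 3 shJUP libraries lay below all 3 controls, and the values within each group were close together. The means were 474 ± 19 and 672 ± 45 CPM (SD, n = 3 each). Its log2 fold change was -0.50 (SE 0.10, 95% interval -0.74 to -0.27), with an edgeR unadjusted p of 0.0013 and an adjusted p of 0.33. DESeq2 called MCL1 lower with an adjusted p of 0.0061, and of 0.00067 with the library number as a block. Leaving out the number-2 libraries gave -0.43 (edgeR adjusted p = 0.14, DESeq2 adjusted p = 0.015). Its ratio to the control of the same number was 0.78, 0.648 and 0.698 for numbers 1, 2 and 3. MCL1 differed least in number 1, whereas JUP was reduced least in number 2. With 3 pairs this is a description, and no relation was tested. In RNA from whole cultures, fewer cells with a transcript and less of it per cell cannot be told apart.

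BCL2L1 (BCL-XL), the second anti-apoptotic gene by level, had 204, 192 and 230 CPM in shJUP, against 200, 202 and 232 CPM in shNC. The groups overlapped almost fully, and the 95% interval of its log2 fold change ran from -0.29 to 0.26. BCL2 had a log2 fold change of 0.30 (SE 0.23), with every shJUP library above its same-numbered control but overlapping groups. BCL2L2 (BCL-W) had -0.16 (SE 0.17). It shares 19.4% of its exon bases with a readthrough transcript to PABPN1, so its counts are uncertain. MCL1 made up 59.8%, 60.5% and 56.0% of the summed level per kilobase of these 4 genes in shJUP 1, 2 and 3, and 65.3%, 69.6% and 63.9% in shNC. These shares did not overlap between the groups, but MCL1 is the largest part of the sum, so they largely restate its difference. The level of BCL2L1 relative to MCL1, per kilobase and within a library, was 0.543, 0.541 and 0.661 in shJUP and 0.415, 0.369 and 0.465 in shNC. With BCL2L1 nearly level, this ratio restates the difference in MCL1, so a test of it could decide nothing more and none is used.

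Among the 3 effector genes all fold changes were above 0, and BAK1 was the one whose groups did not overlap. BAK1 (ENSG00000030110), which forms pores in the mitochondrial outer membrane, had 40.3, 34.8 and 39.6 CPM in shJUP 1, 2 and 3, against 28.4, 25.8 and 28.3 CPM in shNC. Every shJUP library was above every control. The means were 38.2 ± 3.0 against 27.5 ± 1.5 CPM (SD, n = 3 each), a log2 fold change of 0.48 (SE 0.12, 95% interval 0.20 to 0.75). The edgeR adjusted p was 0.39 and the DESeq2 adjusted p 0.080, and DESeq2 with the block gave 0.043. Without the number-2 libraries the DESeq2 adjusted p was 0.076. The ratio to the same-numbered control was 1.42, 1.35 and 1.40, so all pairs were similar. BAX, the second pore-forming effector, had a log2 fold change of 0.26 (SE 0.14, 95% interval -0.07 to 0.59), and BOK had 0.03 (SE 0.14). BAK1 relative to MCL1 was 0.161, 0.147 and 0.170 in shJUP and 0.0881, 0.0705 and 0.0851 in shNC, per kilobase and within a library. The ratio was picked from genes already seen to differ in opposite directions, so it is a description and no test of it is used. BAX relative to BAK1 was 0.607, 0.901 and 0.764 in shJUP and 0.832, 0.853 and 0.927 in shNC, with overlapping groups. These are ratios of RNA levels, and binding of the proteins was not measured.

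**Figure D3:**
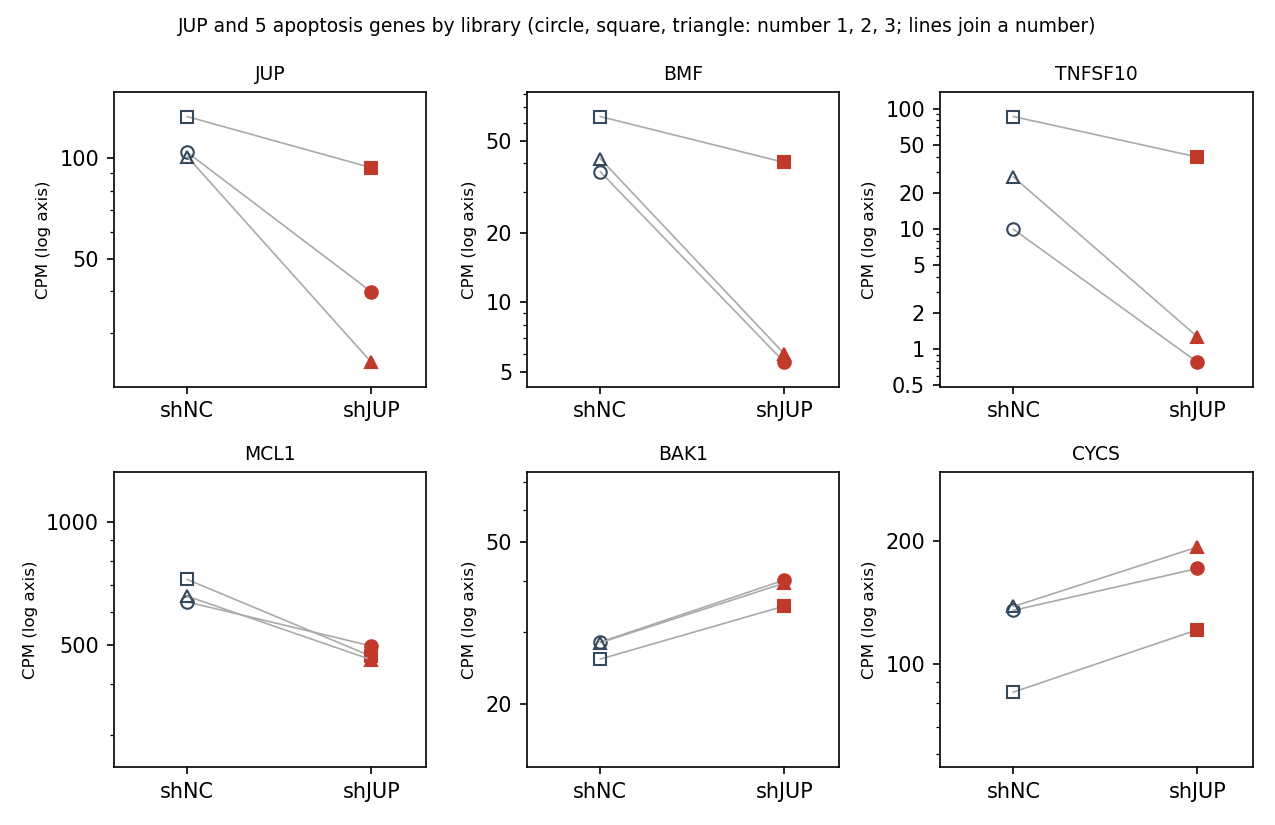
CPM of JUP and 5 apoptosis genes in each library on log axes, with lines joining libraries of the same number. MCL1 is lower and BAK1 and CYCS are higher in shJUP for every number, whereas BMF and TNFSF10 are much lower for numbers 1 and 3 and less so for number 2.

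The BH3-only genes had fold changes in both directions, with 3 of the 8 above 0 and 5 below. BMF (ENSG00000104081), whose protein is tethered to the cytoskeleton and released on loss of attachment, had 5.52, 40.4 and 6.0 CPM in shJUP 1, 2 and 3, against 36.8, 63.8 and 41.9 CPM in shNC. The libraries shJUP 1 and 3 were far below every control, whereas shJUP 2 lay within the control range. The means were 17.3 ± 20 against 47.5 ± 14 CPM (SD, n = 3 each), with a spread in shJUP larger than its mean. The log2 fold change of BMF over all 6 libraries was -1.46 (SE 0.74, edgeR adjusted p = 0.56, DESeq2 adjusted p = 0.65). With the block it was -1.99 by edgeR (adjusted p = 0.13) and -2.08 by DESeq2 (adjusted p = 0.032). Without both number-2 libraries it was -2.76, called by edgeR (adjusted p = 0.015) and by DESeq2 (adjusted p = 1.7e-29). That fit has only 2 libraries in each group and leaves out the pair nearest to its control. Its p-values therefore do not stand for all 6 libraries. In the number-1 pair BMF was at 0.15 of its control, with a 95% counting interval of 0.12 to 0.186. In pair 2 the ratio was 0.633 (0.577 to 0.694) and in pair 3 it was 0.143 (0.116 to 0.174). The matching JUP ratios were 0.384, 0.705 and 0.243, and both genes had their smallest reduction in number 2. With 3 pairs this is a description and no relation was tested.

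HRK, a BH3-only gene better known from neurons, had 1.34, 1.28 and 1.43 CPM in shJUP, against 0.332, 0.372 and 0.871 CPM in shNC. All shJUP libraries lay above the controls, but the counts were 24, 24 and 27 against 6, 7 and 16. Its log2 fold change of 1.35 (SE 0.43) had an edgeR adjusted p of 0.42 and a DESeq2 adjusted p of 0.36. BAD, which acts on BCL-XL and BCL2 and is controlled by phosphorylation, had 14.7, 17.8 and 16.5 against 11.1, 13.4 and 13.7 CPM. The groups were separate by a narrow margin, with a log2 fold change of 0.36 (SE 0.15, edgeR adjusted p = 0.49). BAD shares 23.7% of its exon bases with GPR137 on the opposite strand (7.8 CPM), and the strand setting of the counting is not known.

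BBC3 (PUMA) had 1.84, 2.45 and 0.903 CPM in shJUP, against 3.04, 2.87 and 2.50 CPM in shNC. Each shJUP library was below each control, from 17 to 55 counts per library, with a log2 fold change of -0.69 (SE 0.38, edgeR adjusted p = 0.58). That value was -0.38 without shJUP 3 and -1.03 without shJUP 2. BCL2L11, which encodes BIM, had 8.76, 17.7 and 11.2 against 14.1, 25.1 and 15.2 CPM. It was below the same-numbered control in all pairs, at ratios of 0.622, 0.705 and 0.738, but the groups overlapped, with both number-2 libraries high (log2 -0.53, SE 0.32, edgeR adjusted p = 0.61). Without shNC 2 its log2 fold change was -0.22, without shJUP 1 it was -0.32 and without shJUP 2 it was -0.86. BCL2L11 shares 10.9% of its exon bases with MIR4435-2HG on the opposite strand, which had 59.5 CPM, and the part of its reads was not tested. PMAIP1, the most abundant BH3-only gene, had 128, 127 and 103 against 95.5, 151 and 120 CPM. Its groups overlapped, with a log2 fold change of -0.04 (SE 0.18). BID, which links the receptor route to mitochondria, had -0.11 (SE 0.15), and BIK, at 18 to 68 counts, had 0.44 (SE 0.49).

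Of the 5 caspase genes edgeR (background 0.0%), DESeq2 (1.19%) and limma-voom (0.0%) called 0, and 0 had an unadjusted edgeR p under 0.05 (10.0%). With 5 genes, counts of 0 are close to these backgrounds. CASP6, an executioner caspase, had 14.1, 16.3 and 12.2 CPM in shJUP, against 16.1, 21.4 and 16.3 CPM in shNC. It was below its same-numbered control in every pair, with a log2 fold change of -0.33 (SE 0.18, edgeR adjusted p = 0.57). Per kilobase of exon CASP6 (8.28 to 11.0) and CASP8 (8.26 to 8.96) overlapped in shNC, and with the median transcript length CASP8 was the higher, at 32.5 against 13.3. CASP6 shares 5.4% of its exon bases with MCUB on the opposite strand (31.0 CPM). CASP8, the initiator of the receptor route, had 0.01 (SE 0.11, 95% interval -0.24 to 0.26), and CASP10, its relative, had -0.16 (SE 0.31). CASP9, the initiator of the apoptosome, had -0.09 (SE 0.18) and CASP2 had -0.27 (SE 0.24). CASP8, CASP10 and CFLAR lie next to each other in RefSeq order.

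Among the death receptors and their ligand, the ligand TNFSF10 showed the widest spread of the 32 genes. TNFSF10 (ENSG00000121858) encodes TRAIL, a membrane-bound death ligand also known as an interferon-responsive gene. It had 0.781, 39.7 and 1.27 CPM in shJUP 1, 2 and 3, against 9.95, 86.1 and 27.1 CPM in shNC. The libraries shJUP 1 and 3 lay far under every control, shJUP 2 was above 2 of the 3 controls, and the controls differed widely among themselves. The log2 fold change was -1.56 (SE 1.36, 95% interval -4.74 to 1.63, edgeR adjusted p = 0.71, DESeq2 adjusted p = 0.82). With the block it was -2.62 by edgeR (adjusted p = 0.14) and -3.09 by DESeq2 (adjusted p = 0.014). Without both number-2 libraries it was -4.15 (edgeR adjusted p = 0.053, DESeq2 adjusted p = 1.2e-13). That fit too has only 2 libraries in each group and leaves out the pair nearest to its control. In the number-1 pair TNFSF10 was at 0.0785 of its control, with a 95% counting interval of 0.0421 to 0.135. In pair 2 the ratio was 0.462 (0.423 to 0.504) and in pair 3 it was 0.047 (0.0298 to 0.0708). The depth behind this was 14, 745 and 24 counts in shJUP and 180, 1620 and 498 in shNC. BMF and TNFSF10 were 2 of 25 genes in the transcriptome (0.158%) at a log2 ratio to control below -2 in numbers 1 and 3, a limit chosen after their values were seen.

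The receptors of TRAIL differed less than the ligand. TNFRSF10D, a decoy receptor with a truncated death domain, had 66.1, 78.5 and 91.5 CPM in shJUP, against 54.7, 60.3 and 66.4 CPM in shNC. Each shJUP library was above its same-numbered control, but shJUP 1 lay just below shNC 3, so the groups overlapped slightly. The log2 fold change was 0.38 (SE 0.15), with an edgeR adjusted p of 0.46 and a DESeq2 adjusted p of 0.071 with the block. TNFRSF10B (DR5), the most abundant receptor, had 230, 271 and 230 against 238, 265 and 259 CPM. The groups overlapped, and the 95% interval of its log2 fold change was -0.32 to 0.20. TNFRSF10A (DR4) had 0.10 (SE 0.18). TNFRSF10A, TNFRSF10B and TNFRSF10D lie in one cluster of adjacent genes in RefSeq order.

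FAS had 10.4, 19.9 and 11.8 CPM in shJUP, against 10.5, 27.0 and 11.6 CPM in shNC. Both number-2 libraries were above the other 4, and the groups overlapped (log2 -0.22, SE 0.41). TNFRSF1A, the main receptor of TNF, had the same shape, at 54.4, 76.8 and 56.4 against 55.5, 116 and 57.9 CPM (log2 -0.29, SE 0.30). Without the number-2 libraries the edgeR log2 fold change of TNFRSF1A was -0.02. In all, both number-2 libraries were above the other 4 in FAS, TNFRSF1A, TNFRSF10A, TNFRSF10B and TNFSF10, which are 5 of these 6 genes, against 18.5% of all genes. TNFRSF10B was among them by a narrow margin (271 and 265 CPM, against 259 CPM in shNC 3). Over all 32 genes the count was 9 (28.1%). What the number stands for is not stated in the labels, and its part in these levels was not tested. The adaptor FADD had 36.9, 40.4 and 42.5 against 32.3, 36.9 and 37.2 CPM. It was above its same-numbered control in every pair with overlapping groups (log2 0.17, SE 0.12, edgeR adjusted p = 0.64). CFLAR had a log2 fold change of -0.01 (SE 0.13, 95% interval -0.32 to 0.31).

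**Figure D4:**
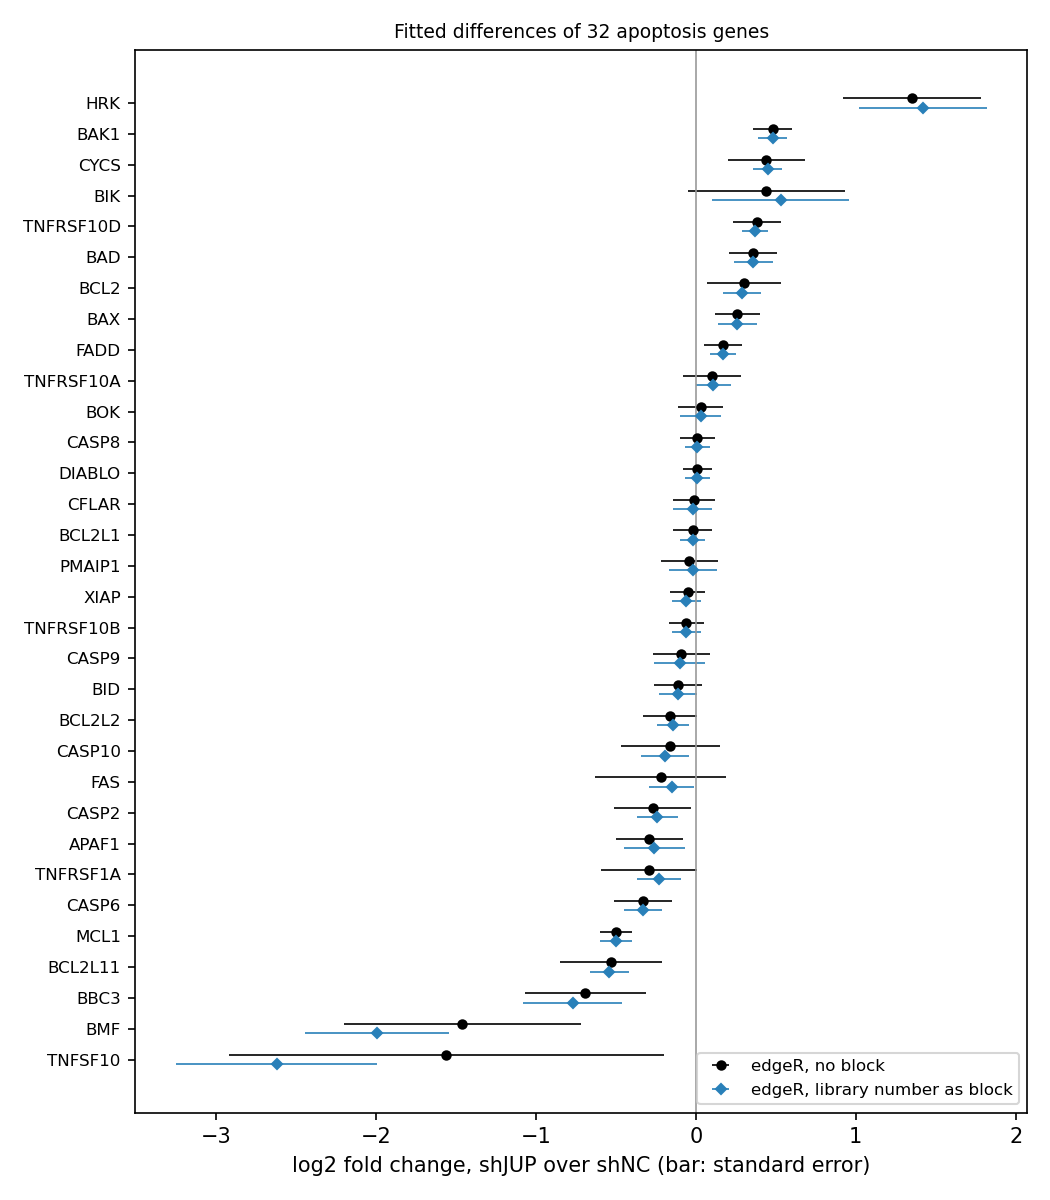
Log2 fold changes of the 32 genes, shJUP over shNC, with standard errors from edgeR, without (black) and with (blue) the library number as a block. The bars of most genes include or lie near 0, and the block moves BMF from -1.46 to -1.99 and TNFSF10 from -1.56 to -2.62.

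Downstream of the mitochondrion, CYCS was higher in each pair. CYCS (ENSG00000172115), whose product cytochrome c carries electrons in respiration and activates APAF1 once released, had 171, 121 and 193 CPM in shJUP, against 135, 85.1 and 138 CPM in shNC. The groups overlapped, with both number-2 libraries low, but the ratio to the same-numbered control was 1.27, 1.43 and 1.40. The log2 fold change was 0.44 (SE 0.24, edgeR adjusted p = 0.58, DESeq2 adjusted p = 0.56). Without shNC 2 it was 0.24 and without shJUP 3 it was 0.29. With the block it was 0.45 (edgeR adjusted p = 0.11, DESeq2 adjusted p = 0.0054), and DESeq2 without the number-2 libraries gave an adjusted p of 0.049. Its partner APAF1 had -0.29 (SE 0.21), DIABLO had 0.01 (SE 0.09, 95% interval -0.21 to 0.23) and XIAP had -0.05 (SE 0.11, 95% interval -0.30 to 0.20). DIABLO had the narrowest spread in controls relative to its mean, at 52.3 ± 0.52 CPM (SD, n = 3).

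Beyond the 32, a list of 40 further apoptosis genes was read in the same way. This list and those that follow were chosen with earlier results of these data known, so their shares are descriptions. Of the 33 tested, edgeR called 0 (background 0.0%), and 3 had an unadjusted edgeR p under 0.05, all higher (9.09%, against 5.17% of all genes higher). DESeq2 called 2 of 31 higher (6.45%, background 0.664%), TRAF1 and BIRC2, and 3 of 29 with the block (10.3%, background 2.35%), with BIRC5 added. BIRC2 (cIAP1), a ubiquitin ligase that keeps TNF receptor signalling on the survival side, had 420, 275 and 391 CPM in shJUP, against 203, 204 and 229 CPM in shNC. All shJUP libraries were above all controls, with a log2 fold change of 0.77 (SE 0.17, edgeR adjusted p = 0.37, DESeq2 adjusted p = 0.0085). TRAF1, its adaptor partner, had 6.92, 3.31 and 8.44 against 2.10, 0.850 and 2.34 CPM (log2 1.82, SE 0.48, DESeq2 adjusted p = 0.020). BIRC5 (survivin), a mitotic gene as well as a member of this family, had 174, 138 and 164 against 105, 106 and 120 CPM (log2 0.52, SE 0.13). The groups did not overlap in 7 of the 33, all higher (21.2%, against 8.39% of all genes higher). These were TRAF1, DAXX, FAF1, BIRC2, BIRC5, DFFA and VDAC2. BIRC5 was called by DESeq2 with the block (adjusted p = 0.0035). In the same family BIRC3 (log2 0.33, SE 0.57), BIRC6 (-0.01, SE 0.09) and BIRC7 (-1.16, SE 0.86) had overlapping groups. VDAC2, a channel of the mitochondrial outer membrane that binds BAK, had 0.24 (SE 0.10) and DAXX had 0.22 (SE 0.10). BIRC2 relative to XIAP, per kilobase and within a library, was 6.38, 4.98 and 6.32 in shJUP and 3.17, 3.39 and 3.50 in shNC. The values of XIAP itself overlapped between the groups, so this ratio restates the difference in BIRC2 and no test of it is used.

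**Figure D5:**
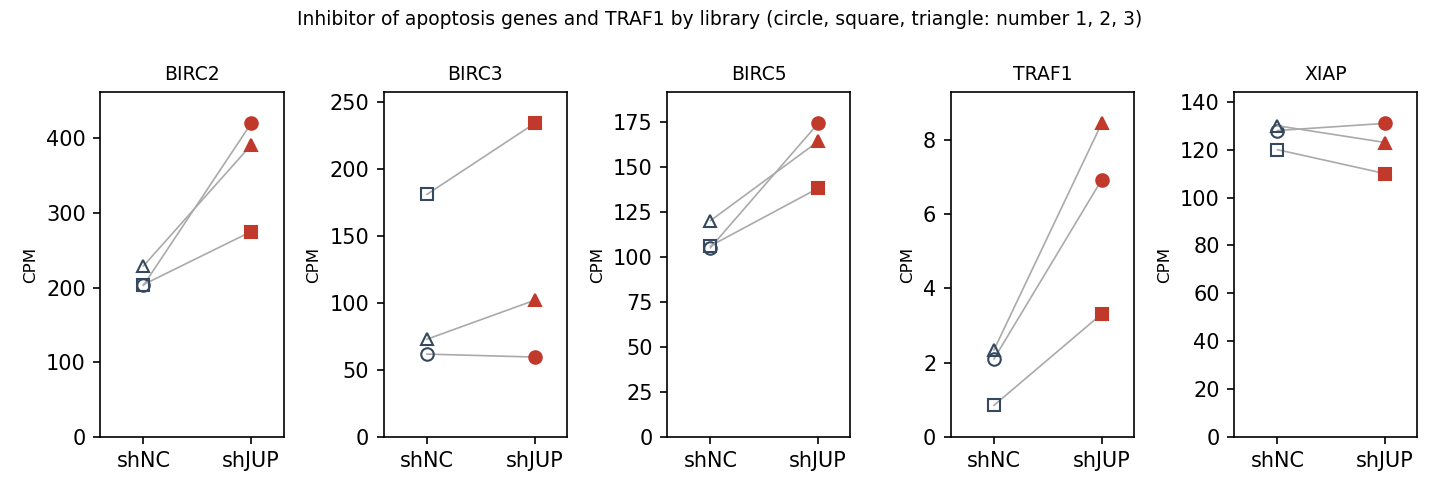
CPM of 4 inhibitor of apoptosis genes and TRAF1 in each library, with lines joining libraries of the same number. The shJUP libraries all lie above the controls for BIRC2, BIRC5 and TRAF1. The groups overlap for BIRC3, with both number-2 libraries high (234 CPM in shJUP 2 and 181 CPM in shNC 2), and XIAP stays between 110 and 131 CPM.

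Several of the 32 genes, among them BBC3, PMAIP1, BAX, FAS and TNFRSF10B, are known targets of p53, a protein that SKOV3 cells are known to lack. Of 19 further p53 target genes, all tested, edgeR called 0 (background 0.0%), and DESeq2 called 1 higher (background 0.664%) and 1 lower (background 0.524%). Those 2 were also the ones with an unadjusted edgeR p under 0.05 (10.5%, background 10.0%). CDKN1A, the p21 cell cycle inhibitor, had 23.3, 22.2 and 18.6 against 7.90, 9.03 and 15.4 CPM (log2 0.99, SE 0.26, DESeq2 adjusted p = 0.044). It was above the controls in every shJUP library, but DESeq2 without the number-2 libraries gave an adjusted p of 0.13. TP53INP1 had 15.6, 23.1 and 10.7 against 30.7, 48.8 and 33.8 CPM (log2 -1.20, SE 0.30, DESeq2 adjusted p = 0.014). CCNG1 (-0.37, SE 0.19), AEN (0.61, SE 0.32) and SESN1 (-0.32, SE 0.21) were not called.

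Genes of the integrated and endoplasmic reticulum stress responses were read as a further list. Of 14 tested, edgeR called 0 (background 0.0%), DESeq2 called 0 on all 6 libraries without the block (background 1.19%) and 4 with it (background 5.25%). Before adjustment 3 had an edgeR p under 0.05 (ATF4, CHAC1 and PPP1R15A, background 10.0%). ATF4, the transcription factor of the integrated stress response, had 325, 256 and 263 against 357, 422 and 383 CPM (log2 -0.46, SE 0.13, DESeq2 adjusted p = 0.032 with the block). Its target CHAC1 had 12.6, 6.56 and 5.15 against 15.8, 19.1 and 15.3 CPM (log2 -1.05, SE 0.33). Both were below the controls in all shJUP libraries. Without the number-2 libraries DESeq2 gave an adjusted p of 0.24 for ATF4 and 0.27 for CHAC1. ASNS was lower with the block (log2 -0.64, SE 0.30, without it) and PPP1R15A was higher (0.71, SE 0.26). Their DESeq2 adjusted p without the number-2 libraries was 0.09 and 0.32. DDIT3, which encodes CHOP, had 0.54 (SE 0.25) and was not called.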

How the data were processed

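The authors deposited estimated counts per Ensembl gene, not scaled between libraries, from mRNA enriched with oligo(dT) beads per the labels' protocols. Per the submitters' processing notes the tools were STAR 2.7.9a, RSEM 1.3.3, edgeR 3.32.1 and DESeq2 1.26.0, without a role for any. Which build, annotation and strand option they used is not given in the sources used here. Of 60695 rows, 31 held no gene ID and were left out. Values that were not whole (33.9% to 36.3% of genes above 0) were rounded. The main fit used edgeR 4.0.16 in R 4.3.3 (filterByExpr, TMM factors 0.978 to 1.028, quasi-likelihood test, two-sided, Benjamini-Hochberg over 15867 genes, threshold 0.05). SE was derived from the F statistic and the fold change, and 95% intervals use the test's degrees of freedom. DESeq2 1.42.0, limma 3.58.1 voom, other scalings and filters, a likelihood-ratio test, a block for the library number, and libraries left out were alternatives. Deviations from group means correlated at 0.14, 0.51 and 0.20 between libraries numbered 1, 2 and 3. Numbers were treated as pairs because of number 2, although shJUP 3 correlated at 0.39 with shNC 1 and shJUP 1 at 0.15 with shNC 3. Exon lengths came from GENCODE 29 and promoters from RefSeq. Counting intervals cover counting error only. Of the steps, only the fitting functions were tested on simulated counts with known fold changes, which held no effect of the library number. The genes and lists were chosen with earlier results of these data known. All 32 genes are accounted for. Values in every library are given for those with an unadjusted edgeR p under 0.05 and those called by DESeq2 with or without the block. They are also given for the most abundant gene per role and a few more. From each other list, up to 5 genes with the smallest p are named, some with only the fold change and SE.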

Additional observations from a re-analysis of the deposited data

How the results depend on the processing

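Over 17 other settings, 22 of the 32 genes kept the direction of their log2 fold change. Outside the fits with 1 library left out, 341 of 352 values had the same direction and 11 the opposite one. The cause was not tested. The count of called genes, 0 in the main fit, was 5 with no filter, 179 with DESeq2, 127 with the edgeR likelihood-ratio test, 1 with the replicate block, 696 with DESeq2 plus the block, and 49 (edgeR) and 651 (DESeq2) without both number-2 libraries. Of the 32 genes, DESeq2 called 1, DESeq2 with the block 5, and the fits without both number-2 libraries 1 (edgeR) and 4 (DESeq2). Those with an unadjusted p under 0.05 numbered 10 with the edgeR block (19.2% of all genes), 10 and 8 without both number-2 libraries in edgeR (17.9%) and DESeq2 (7.22% of the genes with any count), and 2 (without shNC 1, 6.12%) to 9 (without shJUP 2, 14.2%) with 1 library left out. Genes whose groups did not overlap numbered 19 without both number-2 libraries, where only 2 libraries a group remain (51.4% of all genes), and 5 (without shJUP 3, 22.2%) to 14 (without shJUP 2, 37.3%) with 1 left out. The median log2 fold change of the 32 was 0.0035 (edgeR) and 0.0011 (DESeq2) without both number-2 libraries, and -0.05 to 0.0034 with 1 left out. JUP passed in DESeq2 in 2 settings, at -1.30 with the block (adjusted p = 0.048) and at -1.66 when both number-2 libraries were left out (adjusted p = 4.5e-11). The other apoptosis list had 2 calls with DESeq2, 1 with the likelihood-ratio test, 3 with DESeq2 plus the block, and 3 in the DESeq2 fit that leaves out both number-2 libraries. The p53 target list had 2, 1, 2 and 1 in that order. The stress list had 4 with DESeq2 plus the block and 1 in the DESeq2 fit that leaves out both number-2 libraries, where the call was ATF3, named after its value was seen.

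Without both number-2 libraries the direction turned, in edgeR and DESeq2, for BCL2L1 (0.02 and 0.01), PMAIP1 (0.11 and 0.10), FAS (0.02 and 0.01) and CFLAR (0.03 and 0.03), and in DESeq2 for DIABLO (-0.0021). Upper quartile scaling turned CASP8 (-0.0043) and DIABLO (-0.01). With 1 library left out the ranges that crossed 0 were BCL2L1 -0.09 to 0.06, BOK -0.06 to 0.10, PMAIP1 -0.19 to 0.14, CASP8 -0.04 to 0.07, CASP10 -0.52 to 0.06, FAS -0.56 to 0.34, TNFRSF1A -0.48 to 0.14, CFLAR -0.14 to 0.07, DIABLO -0.01 to 0.05 and XIAP -0.11 to 0.01. MCL1 ranged from -0.54 to -0.45, BAK1 from 0.43 to 0.54, BMF from -3.04 (without shJUP 2) to -1.03 (without shJUP 1; -1.05 without shJUP 3) and TNFSF10 from -5.31 (without shJUP 2) to -0.41 (without shNC 2), with -1.0 without shJUP 1 and -1.01 without shJUP 3. Depth limits HRK, BBC3 and BIK, which rest on 6 to 68 counts per library. HRK had no adjusted p with DESeq2 and the block.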
